A study of Homo sapiens with 4 samples.

Results

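INSM2, its close relative INSM1 and 8 further genes form the set described here: REST, the CoREST genes RCOR1 and RCOR2, the MYT1 family (MYT1, MYT1L and ST18) and the Scratch genes SCRT1 and SCRT2. They are 10 of the 64252 gene rows in a table of RNA-seq counts. The row of each symbol was chosen by its highest mean count over all 4 libraries, and each symbol had exactly 1 row, so no choice between rows arose. The set was gathered around INSM2 with its values in these libraries known, and INSM2 is therefore described with no test. The other genes and the lists below were also chosen with earlier results of these data known. Their tests and counts are therefore not independent of that choice. Most of the proteins carry zinc fingers, whereas RCOR1 and RCOR2 are corepressors with SANT domains.

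The libraries came from SK-N-BE(2), a human neuroblastoma cell line with an amplified MYCN gene. Cells carrying an shRNA against CDK5RAP3 (shCDK5RAP3, 2 libraries) were compared with cells carrying a control shRNA (shControl, 2 libraries), so all groups share the hairpin delivery and differ in its target. Neither the number of hairpins nor the time after their delivery is stated in the labels. CDK5RAP3 itself, an adaptor of the UFM1 ligase at the endoplasmic reticulum, had 1669 and 1689 counts in shCDK5RAP3 libraries against 2529 and 2866 counts in shControl libraries, which is 62.1% of the control level in CPM (counts-per-million, scaled with TMM factors), so the loss was partial.

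Total counts were 28653689 and 30138393 in shCDK5RAP3 libraries and 28721740 and 28755837 in shControl libraries. The chi-square per degree of freedom over genes was 6.27 within shCDK5RAP3 and 7.93 within shControl, above counting noise, against 69.1 to 78.5 between groups. Separate cultures are not named in the labels, so p-values measure only the spread between these libraries, which may be technical. The markers fixed for neuroblastoma, including MYCN, HAND2, TH and DBH, were all expressed, summed to 4535 to 4684 CPM in shCDK5RAP3 libraries and 7329 to 7853 CPM in shControl libraries, and 7 of 8 were lower, with HAND2 losing its call under 3 of 12 alternatives (adjusted p up to 0.0906). Of the 6 Schwann cell markers 2 were tested and 1 was lower, while SOX10 and CDH19 were at 0 in every library. The lower one was S100B, with 13 and 12 counts in shCDK5RAP3 libraries against 55 and 58 counts in shControl libraries. Its log2 fold change was -2.17 (edgeR adjusted p = 0.00123). Markers often used for fibroblasts were not at 0: their 6 genes summed to 170 to 181 CPM in shCDK5RAP3 libraries and 484 to 505 CPM in shControl libraries, and 5 of the 6 were lower, led by PDGFRB (log2 fold change -2.32), with COL1A1 losing its call under 7 of 12 alternatives. The 9 leukocyte, endothelial and epithelial markers summed to 4.27 to 4.52 CPM in shCDK5RAP3 libraries and 9.43 to 9.97 CPM in shControl libraries, with 3 of 5 tested lower and CD3E at 0 throughout. Among these, EPCAM lost its call under 3 of 12 alternatives and KRT19 under 1. The other lower gene, CDH5, had 0 and 0 counts in shCDK5RAP3 libraries and 17 and 11 counts in shControl libraries. It passed the filter on low counts through the shControl libraries alone, so its call is no separate support for a difference. The 6 Schwann cell markers summed to 1.57 to 2.30 CPM in shCDK5RAP3 libraries and 3.09 to 3.94 CPM in shControl libraries. Beside the marker counts, 41.5% of all tested genes passed, and 21.8% of all tested genes were lower. The part of these markers in the results below was not tested, and in bulk RNA fewer cells of a type and less RNA per cell cannot be told apart.

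REST binds the RE1 element of neuronal genes and silences them outside neurons, working through CoREST, the demethylase KDM1A and histone deacetylases. INSM1 drives the differentiation of neuroendocrine cells of the pancreas, gut, adrenal medulla and sympathetic lineage, and it also recruits KDM1A and CoREST through an N-terminal SNAG motif. INSM2 is its intronless, less studied relative. The MYT1 family promotes neuronal fate by repressing other programmes, among them Notch effectors, and the Scratch proteins are neuronal relatives of the Snail repressors that bind E-boxes. SK-N-BE(2) is of sympathetic origin, where INSM1 is a known lineage gene.

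Upstream sequences are shown for INSM2, RCOR1 and REST, so that their start regions can be read beside their values. Within the set of 10 genes, INSM2 had the steepest fall and RCOR1 the larger of the CoREST falls. REST had the largest rise among the tested genes of the set. Promoter windows from 250 bases before to 50 bases after a RefSeq start (GRCh38.p14) were held for 6 of the 10 genes. The bases of each window that lie outside annotated exons are printed in lower case, for REST before the start of the gene and before a second start inside it, with matched words in capitals. The words searched on both strands were CAGGTG (the E-box of Snail and Scratch), AAGTTT (the core word of the MYT1 family), and TTCAGCACC and GGACAGC (the left and right parts of the REST site). None of these words overlaps another.

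INSM2 (chr14:35533914-35534041, plus strand): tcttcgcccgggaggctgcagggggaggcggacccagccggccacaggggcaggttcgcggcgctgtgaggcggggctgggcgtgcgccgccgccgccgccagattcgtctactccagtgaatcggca
RCOR1 (chr14:102592399-102592660, plus strand): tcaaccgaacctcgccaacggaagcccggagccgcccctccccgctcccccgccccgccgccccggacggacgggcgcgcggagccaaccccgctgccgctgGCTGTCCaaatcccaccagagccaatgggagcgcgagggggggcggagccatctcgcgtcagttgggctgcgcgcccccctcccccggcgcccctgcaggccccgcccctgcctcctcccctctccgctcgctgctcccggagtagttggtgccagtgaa
REST, outer start (chr4:56907650-56907875, plus strand): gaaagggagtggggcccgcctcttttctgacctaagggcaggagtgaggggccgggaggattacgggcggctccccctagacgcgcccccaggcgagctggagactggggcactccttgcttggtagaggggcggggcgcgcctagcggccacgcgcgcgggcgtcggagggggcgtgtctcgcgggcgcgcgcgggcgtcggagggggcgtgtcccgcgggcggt
REST, inner start (chr4:56908660-56908912, plus strand): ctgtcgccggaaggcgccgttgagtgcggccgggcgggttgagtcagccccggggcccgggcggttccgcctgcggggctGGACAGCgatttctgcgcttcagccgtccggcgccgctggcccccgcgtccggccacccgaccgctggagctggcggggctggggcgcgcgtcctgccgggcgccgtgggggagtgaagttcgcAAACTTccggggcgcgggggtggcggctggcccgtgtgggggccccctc

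The INSM2 stretch of 128 bases held none of the words, and 74.2% of it was G or C. The outer REST stretch of 226 bases also held none. The RCOR1 stretch held the right part of the REST site on the minus strand, and the inner REST stretch held that same part on the plus strand and the MYT1 word on the minus strand. The right part alone occurred in 6.03% of 35116 promoter windows, the MYT1 word in 12.8%, the E-box in 20.6% and the left part in 0.376%. The left part was in none of the 10 windows, and the E-box was in that of SCRT2. A match describes letters only, and its absence says nothing about binding.

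INSM2 (ENSG00000168348, GRCh38 chromosome 14, 35534042 to 35537054) was the most abundant of the 10 transcripts and was far lower in shCDK5RAP3. It had 3820 and 4201 counts in shCDK5RAP3 libraries against 14434 and 14266 counts in shControl libraries. Scaled for library size this was 138 ± 5.79 CPM in shCDK5RAP3 and 494 ± 5.80 CPM in shControl (SD, n = 2 each), or 27.9% of control. Both shCDK5RAP3 libraries lay far below both shControl libraries, and the libraries of a group differed little. The log2 fold change of -1.84 ± 0.06 (SE) is given as a description. Of 18775 genes tested, 399 (2.13%) had a log2 fold change as low or lower, and 2.27% were as abundant or more so.

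INSM1 (ENSG00000173404, chromosome 20, 20368121 to 20370949) went the other way. It had 490 and 490 counts in shCDK5RAP3 libraries against 357 and 346 counts in shControl libraries, or 16.8 ± 0.424 CPM against 12.1 ± 0.310 CPM (SD, n = 2 each). Both shCDK5RAP3 libraries were above both shControl libraries, and INSM1 rose by a log2 fold change of 0.48 ± 0.12 (SE; edgeR adjusted p = 0.0116). The call was lost without shCDK5RAP3 replicate 1 (edgeR adjusted p = 0.0810) and without shCDK5RAP3 replicate 2 (0.0765), within a range of 0.00356 to 0.0810 over 12 alternatives. Per kilobase of transcript, the INSM2 level was 7.32 and 8.05 times the INSM1 level in shCDK5RAP3 libraries, against 38.0 and 38.7 times in shControl libraries. The level of both genes added together was 51.7 ± 1.77 CPM per kb in shCDK5RAP3 and 168 ± 2.04 CPM per kb in shControl (SD, n = 2 each), so INSM2 made up most of it in every library.

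**Figure D1:**
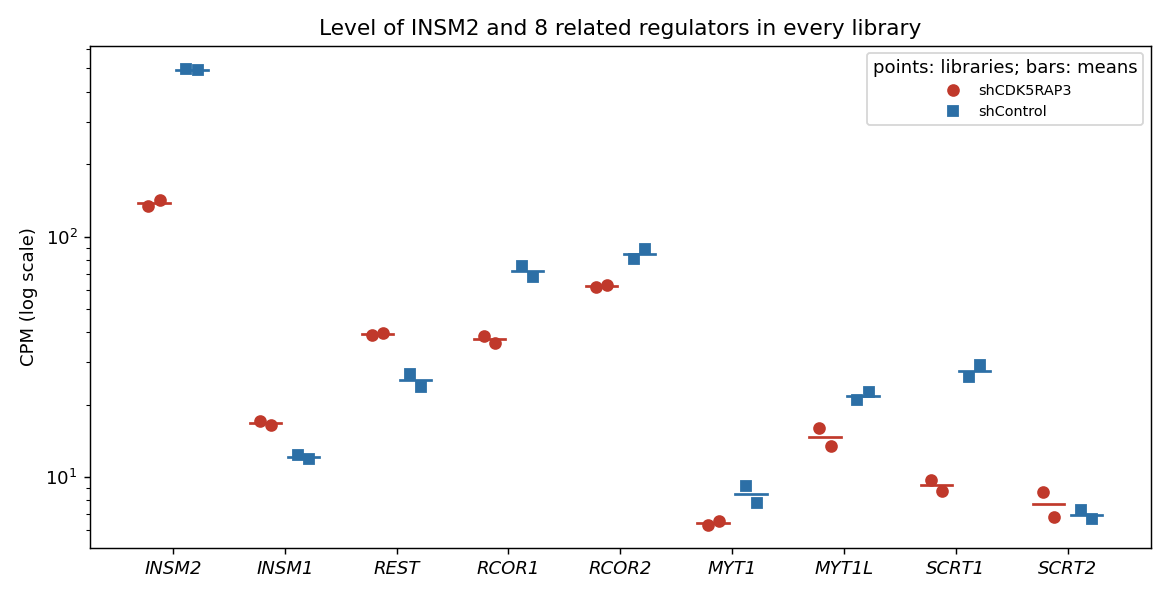
CPM (counts scaled to a common library size) on a log axis for INSM2 and the 8 other tested genes, with shCDK5RAP3 libraries (circles) left of shControl libraries (squares) and a bar at each mean of 2 libraries. INSM2 stands at 138 CPM in shCDK5RAP3 and 494 CPM in shControl, and the groups overlap for SCRT2 only; ST18, at 0 in shControl, is not drawn.

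Beside INSM2, 8 of the other 9 genes passed the filter on low counts and were tested. Of these, 2 rose (INSM1 and REST), 4 fell (SCRT1, RCOR1, MYT1L and RCOR2) and 2 did not pass (MYT1 and SCRT2). Over all tested genes 41.5% passed, 19.7% upward and 21.8% downward, so calls were common in this comparison. Of the 8 genes, 7 had groups that did not overlap, against 71.4% of all tested genes, so separated groups were common too. Of the 8 other tested genes, 4 passed without shCDK5RAP3 replicate 2. Over all genes 7792 passed, against 4836 without shCDK5RAP3 replicate 1 and 3752 without shCDK5RAP3 replicate 2.

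REST (ENSG00000084093, chromosome 4, 56907876 to 56966678), the RE1-binding repressor, rose. It had 1113 and 1173 counts in shCDK5RAP3 libraries against 779 and 692 counts in shControl libraries. This was 39.3 ± 0.470 CPM in shCDK5RAP3 and 25.3 ± 2.21 CPM in shControl (SD, n = 2 each), a log2 fold change of 0.63 ± 0.10 (SE; edgeR adjusted p = 0.000796). Both shCDK5RAP3 libraries lay above both shControl libraries. The annotated end of REST overlaps the gene NOA1 on the opposite strand, which had 816 and 990 counts in shCDK5RAP3 libraries against 1574 and 1731 counts in shControl libraries. Whether counting used strand is not stated, so reads in the overlap cannot be assigned, and NOA1 moved in the direction opposite to REST (log2 fold change -0.88).

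The CoREST scaffolds, which link KDM1A to histone deacetylases, both fell. RCOR1 (ENSG00000089902, chromosome 14, 102592661 to 102730576) had 1107 and 1073 counts in shCDK5RAP3 libraries against 2187 and 1982 counts in shControl libraries, or 52.2% of control in CPM. Its log2 fold change was -0.94 ± 0.08 (SE; edgeR adjusted p = 4.37e-05). RCOR2 (ENSG00000167771, chromosome 11, 63911221 to 63916844), a CoREST gene used in neural and stem cells, had 1761 and 1866 counts in shCDK5RAP3 libraries against 2327 and 2580 counts in shControl libraries. It fell to 73.7% of control (log2 fold change -0.44 ± 0.07 SE; edgeR adjusted p = 0.00140). For both genes the groups were fully separated.

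The third CoREST gene, RCOR3, named after its values were seen, rose by 0.27 on the log2 scale (edgeR adjusted p = 0.0251). Per kilobase of transcript, the levels of RCOR1, RCOR2 and RCOR3 together were 51.2 ± 0.608 CPM per kb in shCDK5RAP3 and 62.1 ± 1.14 CPM per kb in shControl (SD, n = 2 each). The RCOR1 level was 1.26 and 1.16 times the REST level in shCDK5RAP3 libraries, against 3.56 and 3.63 times in shControl libraries. RCOR1 and REST therefore stood close to each other in shCDK5RAP3 libraries and well apart in shControl libraries.

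Partner proteins of REST and CoREST went both ways. Of 19 listed, all 19 were tested, and 3 rose, 8 fell and 8 did not pass. The share that passed was 57.9%, against 41.5% of all tested genes. The median log2 fold change of the 19 was -0.20 against -0.0034 over all tested genes. Among the falls was CTDSPL (-1.06 ± 0.09 SE, edgeR adjusted p = 3.23e-05), a small phosphatase that acts with REST. ZMYM3 (-0.47), ZMYM2 (-0.43) and the phosphatase CTDSP2 (-0.39) also fell, CTDSP2 not without shCDK5RAP3 replicate 2 (edgeR adjusted p = 0.0518). Named after their values were seen, the demethylase KDM1A had a log2 fold change of 0.10 and HDAC1 one of -0.05, and neither passed (edgeR adjusted p = 0.189 and 0.607). Likewise named after their values were seen, the other rises of the list were EHMT1 (0.36, edgeR adjusted p = 0.00148) and HDAC2 (0.21, 0.0199). Leaving out shCDK5RAP3 replicate 1 left 7 passing partners, and leaving out its replicate 2 left 5.

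Genes that process REST or its RNA were also measured. Of 6 listed and tested, 1 rose, 3 fell and 2 did not pass. The share that passed was 66.7%, against 41.5% of all tested genes. BTRC, the ubiquitin ligase subunit that marks REST for degradation, had 22.3 CPM in shCDK5RAP3 and 36.5 CPM in shControl and fell by 0.71 on the log2 scale (SE 0.09, edgeR adjusted p = 0.000301). SRRM4, a neural splicing factor that shifts REST to a truncated form, fell by 0.66 (edgeR adjusted p = 0.00379), and its relative SRRM3 fell by 0.26 (0.0371). The deubiquitinase USP7 rose by 0.20 (edgeR adjusted p = 0.0282). Calls were lost under 6 of 12 alternatives for SRRM3, 5 for USP7 and 3 for SRRM4, whose adjusted p reached 0.167, 0.219 and 0.0805, and without either shCDK5RAP3 library the count that passed was 1. Gene counts do not separate the REST forms.

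Neuronal genes known as REST targets were mostly lower. Of 23 listed, 17 were tested, and 3 rose, 12 fell and 2 did not pass, with a median log2 fold change of -0.65. The share that passed was 88.2%, against 41.5% of all tested genes, of which 21.8% were lower. The median over all tested genes was -0.0034. The granin CHGA, also on the neuroblastoma marker list, had 105 CPM in shCDK5RAP3 and 509 CPM in shControl (log2 fold change -2.27 ± 0.08 SE, edgeR adjusted p = 4.69e-07). The adhesion molecule L1CAM (log2 fold change -1.08) and the neuronal intermediate filament INA (-1.06) fell, as did the synaptic vesicle protein SYN1, with 7.92 CPM in shCDK5RAP3 and 15.8 CPM in shControl. The AMPA receptor subunit GRIA2 moved in the opposite direction, with 446 and 368 counts in shCDK5RAP3 libraries against 106 and 132 counts in shControl libraries (log2 fold change 1.77 ± 0.19 SE, edgeR adjusted p = 0.000117). Named after their values were seen, SNAP25 (0.23, edgeR adjusted p = 0.0302) and TUBB3 (0.22, 0.0250) were the other rises. The count that passed was 10 without shCDK5RAP3 replicate 2.

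**Figure D2:**
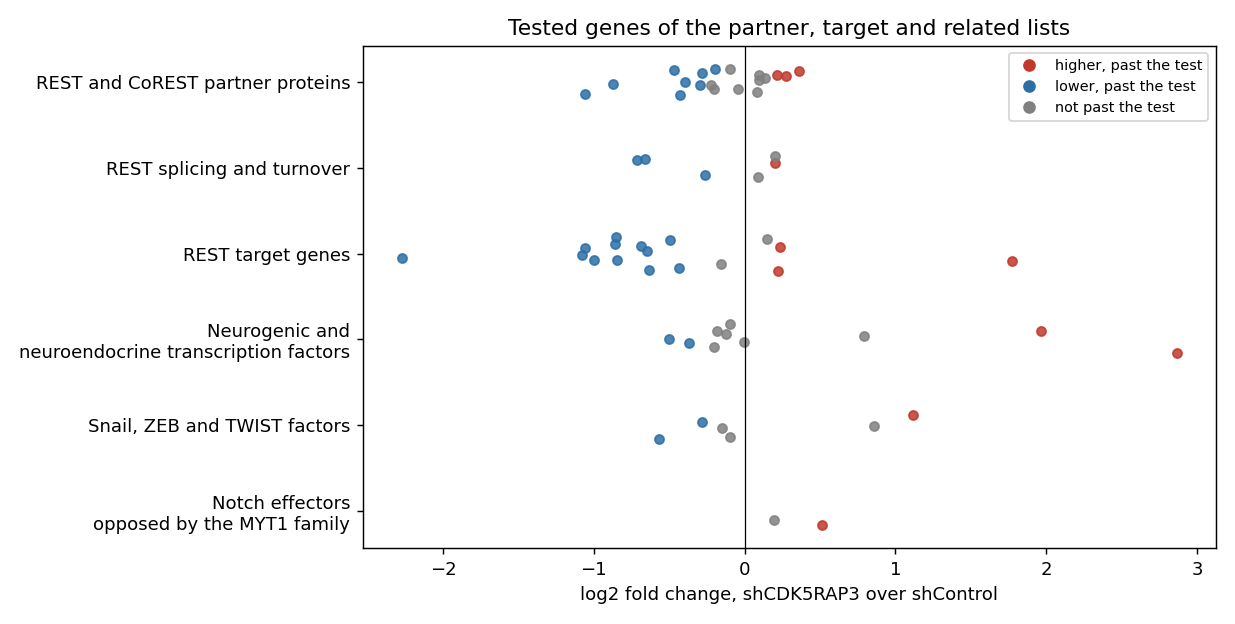
Log2 fold change of shCDK5RAP3 over shControl for each tested gene of the 6 lists, with genes past the edgeR threshold in red (higher) or blue (lower) and others in grey; vertical position within a row is random. Most REST target genes lie left of 0 with CHGA at -2.27, while NEUROG2 and NEUROD1 lie farthest right at 2.86 and 1.97; HES4, at 0 in shControl, is not drawn.

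In the MYT1 family the member expressed in neurons, MYT1L (ENSG00000186487, chromosome 2, 1789113 to 2331664), fell. It had 456 and 400 counts in shCDK5RAP3 libraries against 605 and 659 counts in shControl libraries, a log2 fold change of -0.56 ± 0.12 (SE; edgeR adjusted p = 0.00584). The groups were separated, but the call was lost without shCDK5RAP3 replicate 2 (edgeR adjusted p = 0.0849) and with no filter on low counts (0.0565), within a range of 0.000456 to 0.0849 over 12 alternatives. The antisense gene MYT1L-AS1 had 37 and 44 counts in shCDK5RAP3 libraries against 25 and 21 counts in shControl libraries, and it did not pass (edgeR adjusted p = 0.0957).

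MYT1 (ENSG00000196132, chromosome 20, 64102394 to 64242253), which acts in neural and pancreatic endocrine progenitors, had 181 and 194 counts in shCDK5RAP3 libraries against 267 and 227 counts in shControl libraries. Its groups did not overlap, yet its log2 fold change of -0.40 ± 0.17 (SE) did not pass (edgeR adjusted p = 0.0876), nor did it under any of the 12 alternatives. ST18 (ENSG00000147488, chromosome 8, 52110839 to 52460959), the third gene of the family, had 13 and 3 counts in shCDK5RAP3 libraries and 0 and 0 counts in shControl libraries. It was too low to be tested. With 3 counts taken as the floor in each shControl library, its mean CPM was at least 2.66-fold higher in shCDK5RAP3, a value that rests on the library with 13 counts, since the other stood at the floor itself.

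Of 6 listed Notch effectors of the HES and HEY families, 3 were tested and 2 rose, where 41.5% of all tested genes passed. Whether the MYT1 family opposes each of them was not tested. The repressor HES1 had 309 and 357 counts in shCDK5RAP3 libraries against 204 and 261 counts in shControl libraries (log2 fold change 0.51 ± 0.17 SE, edgeR adjusted p = 0.0368), and it lost its call under 5 of 12 alternatives, with an adjusted p of up to 0.229. HES4 had 17 and 15 counts in shCDK5RAP3 libraries and 0 and 0 counts in shControl libraries. With 3 counts as the floor in each shControl library, its mean CPM was at least 5.27-fold higher in shCDK5RAP3. HES4 passed the filter on low counts through the shCDK5RAP3 libraries alone. Its call, 1 of the 2 rises, is therefore no separate support for a difference. The count that passed was 1 without shCDK5RAP3 replicate 1, 1 without shControl replicate 1 and 0 without shCDK5RAP3 replicate 2 (1 at an unadjusted p under 0.05), and 0 with DESeq2 (3 at an unadjusted p under 0.05).

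The Scratch pair split. SCRT1 (ENSG00000261678, chromosome 8, 144330565 to 144336281) had 277 and 260 counts in shCDK5RAP3 libraries against 758 and 848 counts in shControl libraries. This was 9.24 ± 0.645 CPM in shCDK5RAP3 and 27.7 ± 2.1 CPM in shControl (SD, n = 2 each), or 33.4% of control, with a log2 fold change of -1.58 ± 0.12 (SE; edgeR adjusted p = 2.05e-05). SCRT2 (ENSG00000215397, chromosome 20, 661596 to 676179) had 247 and 202 counts in shCDK5RAP3 libraries against 211 and 194 counts in shControl libraries. Its groups overlapped, and its log2 fold change of 0.15 ± 0.18 (SE) did not pass (edgeR adjusted p = 0.551). Per kilobase, the SCRT1 level was 1.06 and 1.22 times the SCRT2 level in shCDK5RAP3 libraries, against 3.40 and 4.14 times in shControl libraries. An annotated gene on the same strand, AL121758.1, overlaps SCRT2 and had 12 to 28 counts a library. Reads in that overlap cannot be assigned with certainty, and their number was not measured.

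Among the related Snail, ZEB and TWIST factors, 6 of 7 were tested, and 1 rose, 2 fell and 3 did not pass. SNAI2, a Snail repressor of neural crest cells, had 28.9 CPM in shCDK5RAP3 and 13.4 CPM in shControl (log2 fold change 1.11 ± 0.11 SE, edgeR adjusted p = 8.01e-05). TWIST1, a partner of MYCN in neuroblastoma, fell by 0.57 (SE 0.07, edgeR adjusted p = 0.000182). ZEB1 fell by 0.28 (edgeR adjusted p = 0.0149), a call lost under 4 of 12 alternatives with an adjusted p of up to 0.160.

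**Figure D3:**
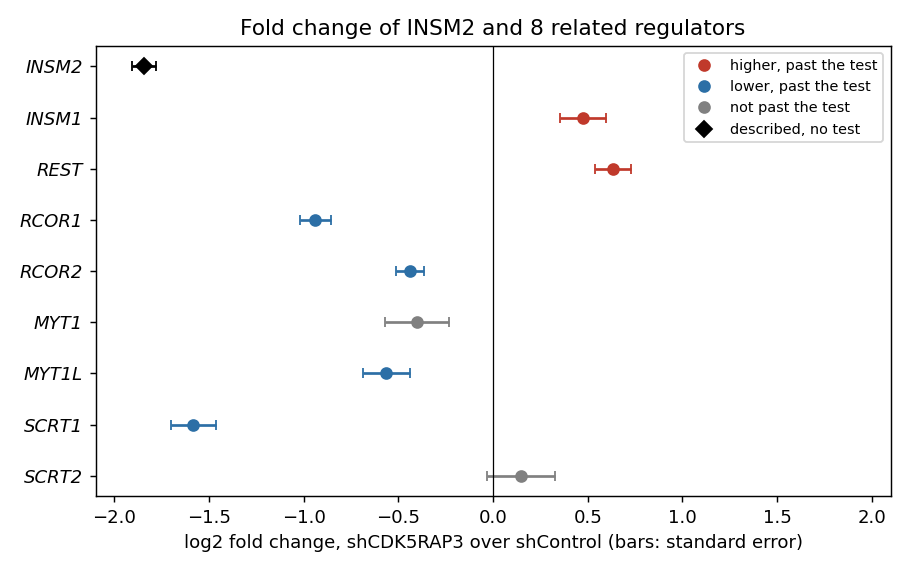
Log2 fold change of shCDK5RAP3 over shControl with its standard error for INSM2 and the 8 other tested genes. INSM1 and REST lie right of 0, SCRT1 at -1.58 is the lowest of those tested, and INSM2 at -1.84 (diamond) is shown as a description.

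Of 23 listed neurogenic and neuroendocrine transcription factors, 10 were tested and 10 were at 0 in every library. Among those tested, 2 rose and 2 fell, while 6 had no call. Calls thus covered 40.0% of the tested part of this list, close to the 41.5% of all tested genes. NEUROG2, a proneural factor, had 66 and 67 counts in shCDK5RAP3 libraries against 10 and 8 counts in shControl libraries (log2 fold change 2.86 ± 0.36 SE, edgeR adjusted p = 0.000297). NEUROD1, a neuroendocrine differentiation factor and known INSM1 target, had 144 and 131 counts in shCDK5RAP3 libraries against 36 and 34 counts in shControl libraries (log2 fold change 1.97 ± 0.24 SE, edgeR adjusted p = 0.000241). EBF1 fell by 0.50 and PROX1 by 0.37 (edgeR adjusted p = 0.00501 and 0.00299), and each lost its call under 2 of 12 alternatives, both without shCDK5RAP3 replicate 2 (0.0968 and 0.0720). Without that library 2 genes of the list passed. Both rises passed under each of the 12 alternatives, at mean levels of 2.29 CPM for NEUROG2 and 4.73 CPM for NEUROD1 in shCDK5RAP3, against 0.310 CPM and 1.21 CPM in shControl.

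Compared per kilobase of the main annotated transcript, the level of INSM2 was the highest of the 10 genes in both groups. In shCDK5RAP3 the order of mean levels was INSM2 (45.7 CPM per kb), RCOR2 (23.9), RCOR1 (6.51), INSM1 (5.95), REST (5.38), SCRT1 (2.44), SCRT2 (2.16), MYT1L (2.01), MYT1 (1.16) and ST18 (0.0449). Libraries of SCRT1 and SCRT2 overlapped there, as did those of SCRT2 and MYT1L. In shControl the order was INSM2 (164 CPM per kb), RCOR2 (32.5), RCOR1 (12.5), SCRT1 (7.32), INSM1 (4.28), REST (3.47), MYT1L (2.97), SCRT2 (1.95), MYT1 (1.54) and ST18 at 0, with no overlap between neighbours. SCRT1 thus took the sixth place in shCDK5RAP3 and the fourth in shControl. With the length of all annotated exons in place of the main transcript, MYT1L moved to the ninth place in both groups.

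**Figure D4:**
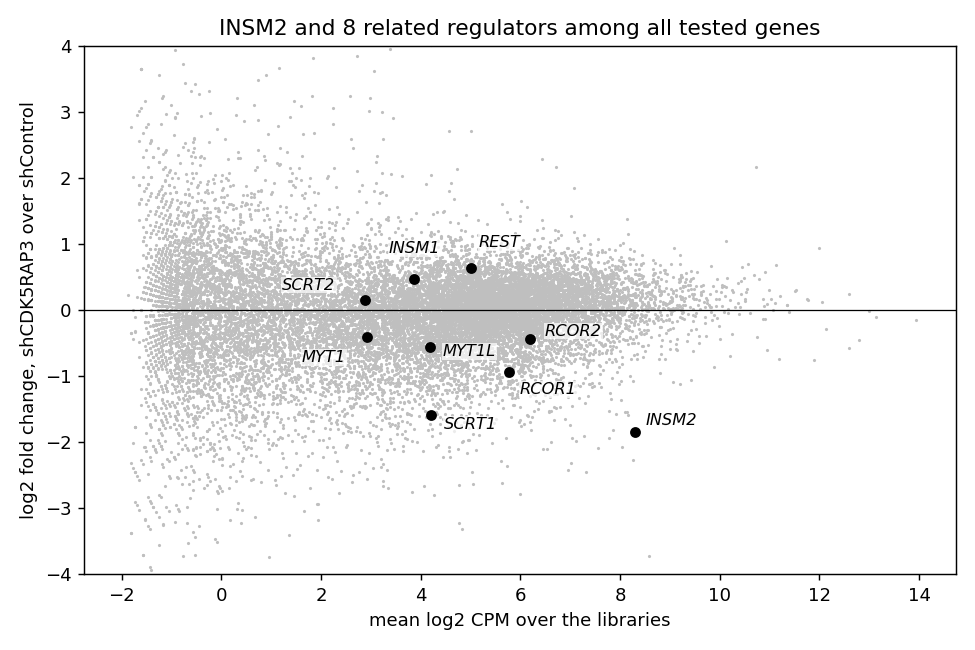
Log2 fold change of shCDK5RAP3 over shControl against mean log2 CPM for 17575 tested genes with a symbol (grey), with INSM2 and the 8 other tested genes in black; 44 genes beyond a log2 fold change of 4 in either direction lie outside the axis. INSM2 lies at -1.84, and 399 (2.13%) of all 18775 tested genes had a log2 fold change as low or lower.

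The neighbouring gene of INSM2, RALGAPA1, ends 1298 bases away on the opposite strand and had 1887 and 1905 counts in shCDK5RAP3 libraries against 3415 and 2917 counts in shControl libraries (log2 fold change -0.74 ± 0.08 SE, edgeR adjusted p = 0.000171). MARK2, which lies 202 bases from RCOR2, had a log2 fold change of 0.06 and did not pass (edgeR adjusted p = 0.510). OPRL1, 1751 bases from MYT1 on the same strand, had 11 and 25 counts in shCDK5RAP3 libraries against 58 and 36 counts in shControl libraries and fell (log2 fold change -1.39 ± 0.46 SE, edgeR adjusted p = 0.0367).

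The genes whose profile over the 4 libraries was nearest to that of INSM2, by Euclidean distance of log2 CPM centred on each gene's mean, were RTN4R, PEX2 and MMP11. The distance was 0.0391 for RTN4R, 0.0398 for PEX2 and 0.0665 for MMP11. The log2 fold change was -1.93 for RTN4R, -1.88 for PEX2 and -1.82 for MMP11. With 4 libraries in 2 groups, this likeness describes little beyond the size of the difference between groups.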

How the data were processed

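The deposited values are whole-number counts per gene made by the authors, who named HISAT2 2.2.0, StringTie and hg38, per the submitters' processing notes. No source used here gives the annotation, the strand setting or the handling of multi-mapping reads. Symbols, positions and lengths came from GENCODE 29 (GRCh38), which matched 56591 of 64252 rows, and rows without a symbol held 1.82% to 1.90% of counts. Genes were filtered with filterByExpr, scaled with TMM factors and tested with the quasi-likelihood test of edgeR 4.0.16 in R 4.3.3, p-values being adjusted across the 18775 tested genes by Benjamini-Hochberg (threshold 0.05). The common biological coefficient of variation was 0.0959. The procedure was tested on simulated data. DESeq2 1.42.0, other scalings and filters, a replicate block and leaving out each library were the alternatives. The genes and lists were chosen with earlier results of these data known. Genes were named by rule: all 10 genes, CDK5RAP3, up to 5 passing genes of each list by size of change, marker genes with a call or at 0 throughout, and the 3 nearest profiles to INSM2; the exceptions are named as such and overlapping or neighbouring genes were named by position; both kinds were fitted under the main settings only. A gene that the rule names is not reported here. Levels between genes were compared per kilobase of the longest APPRIS principal transcript. A floor of 3 counts per library stood in for 0 and covers counting error only. Same-numbered libraries deviated together only weakly (r = 0.0895 across genes), and no label pairs them, so the numbers were not treated as pairs.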

Additional observations from a re-analysis of the deposited data

How the results depend on the processing

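Of 576 log2 fold changes (48 tested genes chosen by the naming rule, under 12 alternatives), 529 kept direction and side of the threshold and 46 lost the threshold. INSM2, described with no test, ranged between -1.89 and -1.79. The 1 reversal was SCRT2, at -0.023 without shCDK5RAP3 replicate 1 and 0.31 without shCDK5RAP3 replicate 2. With no filter on low counts 4488 genes passed, with 7 of the REST and CoREST partners, 1 of the REST splicing and turnover genes and 1 Notch effector. A minimum of 1 CPM in 2 libraries left 1 Notch effector and DESeq2 left 0 (3 at an unadjusted p under 0.05), with 6354 genes overall. Leaving out 1 library gave 3752 to 7329 genes, 5 to 11 partners, 1 to 4 splicing and turnover genes, 0 to 2 Notch effectors and 2 to 5 neurogenic factors, with the lone library assumed to vary like the other group. The cause was not tested beyond the fewer libraries of these fits. Same-numbered libraries shared little (r = 0.0895 across genes), and with the replicate block 9150 genes passed, with 6 of the 8 tested genes beside INSM2, as without it. ST18 and HES4 had at most 17 counts in a library, so their folds are bounds set by a floor of 3 counts.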
